A study of Mus musculus with 26 samples.

Results

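The genes described here are those that answered to DZNep and to Romidepsin by different amounts or in opposite directions in the retina of rd10 mice. They were sought with a contrast of contrasts, in which the effect of Romidepsin (3 treated libraries less their 3 controls) was subtracted from the effect of DZNep (2 treated libraries less their 4 controls), so 12 of the 26 libraries of the series enter. All 12 were RNA from whole retina of B6.CXB1-Pde6brd10/J mice, which carry a mutation of Pde6b, a catalytic subunit of the rod phosphodiesterase, and lose their rods in the first weeks of life. The saline control animals therefore carry the same mutation as the treated animals, and no wild type retina enters. Injections were intraperitoneal from postnatal day (PN) 9, and retinas were taken at PN24. Romidepsin was given at 0.2 mg/kg daily, DZNep at 1.5 mg/kg daily from PN9 to PN12 and then at 1 mg/kg each second day from PN13 to PN24, and the controls of each experiment received saline. The doses and schedules of the compounds differ and were set for each on its own, so values are given side by side and each treatment is read against its own controls.

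DZNep inhibits S-adenosylhomocysteine hydrolase and thereby lowers the activity of methyltransferases, among them EZH2, the enzyme of Polycomb repressive complex 2 that methylates histone H3 at lysine 27. Romidepsin inhibits class I histone deacetylases, mainly HDAC1 and HDAC2, and raises histone acetylation. Both marks bear on how tightly chromatin is packed, and the study used these compounds to ask whether opening chromatin keeps rods alive. Immediate-early genes are transcribed within minutes of a stimulus, and their products, among them the AP-1 and Egr factors, switch on later genes. Reactive gliosis is the response of Müller glia, the radial glia of the retina, to photoreceptor damage, and the retinal pigment epithelium (RPE) behind the rods regenerates the visual chromophore.

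Library totals ran from 14115428 counts (DZNep replicate 2) to 36354094 counts (DZNep replicate 1), and TMM scaling factors from 0.923 to 1.06. Levels are given as CPM, the counts of a gene scaled to the TMM-adjusted size of its library. Between the control groups (4 for DZNep, 3 for Romidepsin) 1949 of 16927 genes (11.5%) had an unadjusted p under 0.05, and 2 genes were called (0.0118%). The median difference of the 21 microglial genes between these control groups was -0.96 on the log2 scale. DZNep replicate 2 stood apart by some lens transcripts, with Cryaa at 37.8 CPM and Crybb2 at 14.3 CPM, where no other library held more than 0.658 and 0.865 CPM, while the lens marker Mip was at 0.304 CPM there and at 0 elsewhere. Summed over the lens list it held 133 CPM, DZNep replicate 1 held 51.0 CPM and the other libraries up to 137 CPM. Outside DZNep replicate 2 this sum came almost wholly from listed genes other than Cryaa, Crybb2 and Mip, so it says little about these transcripts. A transcript of the Y chromosome, Ddx3y, was found in 0 of 2 DZNep libraries, 1 of 4 DZNep controls, 1 of 3 Romidepsin libraries and 2 of 3 Romidepsin controls. The retinal label held in every library, with summed rod phototransduction transcripts from 13325 to 54343 CPM.

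The DZNep effect exceeded the Romidepsin effect for 7 genes, among them Rpe65 and Stra6 of vitamin A handling in the RPE. It fell short of the Romidepsin effect for 17 genes. Among these were Egr1, Egr2, Fos and Fosl1 of the immediate-early genes, and Lif and Clcf1 of the interleukin-6 family of cytokines. A gene was called when the Benjamini-Hochberg adjusted p of edgeR's quasi-likelihood test was under 0.05 and the log2 difference was above 1 or below -1. These 24 genes made 0.142% of the 16927 genes tested (0.0414% higher, 0.1% lower), whereas 2040 genes (12.1%) had an unadjusted p under 0.05. Their log2 differences ran from 1.06 to 4.01 in size with standard errors of 0.17 to 0.68, and all but Egr1 had adjusted p-values between 0.0219 and 0.0497. With each library expressed relative to its own controls, the DZNep and Romidepsin libraries did not overlap in any of the 24, nor in 34.2% of all genes tested. The 24 were called from the same values, so their separation is no further evidence. Opposite signs of the fitted effects were seen in all 7 genes called higher and in 15 of the 17 called lower. Between the control groups the 24 genes differed by -1.34 to 0.90 log2 units, none with an adjusted p under 0.05. That threshold was rarely passed between controls, where 2 of the 16927 genes were called. An unadjusted p under 0.05 (edgeR) was found for A930033H14Rik, Edn2, Mfrp, Egr1, A930028C08Rik and Mt2, and for 11.5% of all genes. For these the controls did not match closely.

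The number of calls depended on single libraries. Without Romidepsin replicate 1 there were 100 genes higher and 174 lower, without Romidepsin control replicate 2 there were 16 and 46, without DZNep replicate 1 there were 19 and 1, and without Romidepsin replicate 2 there were 3 and 4. Leaving out any of the other 8 libraries left between 0 and 2 genes higher and 1 lower, which was Egr1 each time. The likelihood ratio test of edgeR, which the study used, called 88 genes higher and 150 lower, all 24 genes named here included.

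By the main test more genes were called for each treatment on its own than for the difference, which is estimated with larger standard errors. These counts therefore do not measure how far the treatments agree. Without Romidepsin replicate 1, DZNep had 140 genes higher and 58 lower, beside 100 and 174 for the difference. With all 12 libraries the counts were as follows. DZNep raised 134 genes (0.792%) and lowered 52 (0.307%), and Romidepsin raised 286 (1.69%) and lowered 186 (1.1%), by the same thresholds. Of these, 27 genes were raised by both treatments and 12 lowered by both, while 5 were raised by DZNep and lowered by Romidepsin and 1 was lowered by DZNep and raised by Romidepsin. Over the 16927 genes the fitted effects had a Pearson r of 0.348 and a Spearman correlation of 0.392, given as a description since genes are not independent and the libraries of an experiment share their controls.

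**Figure D1:**
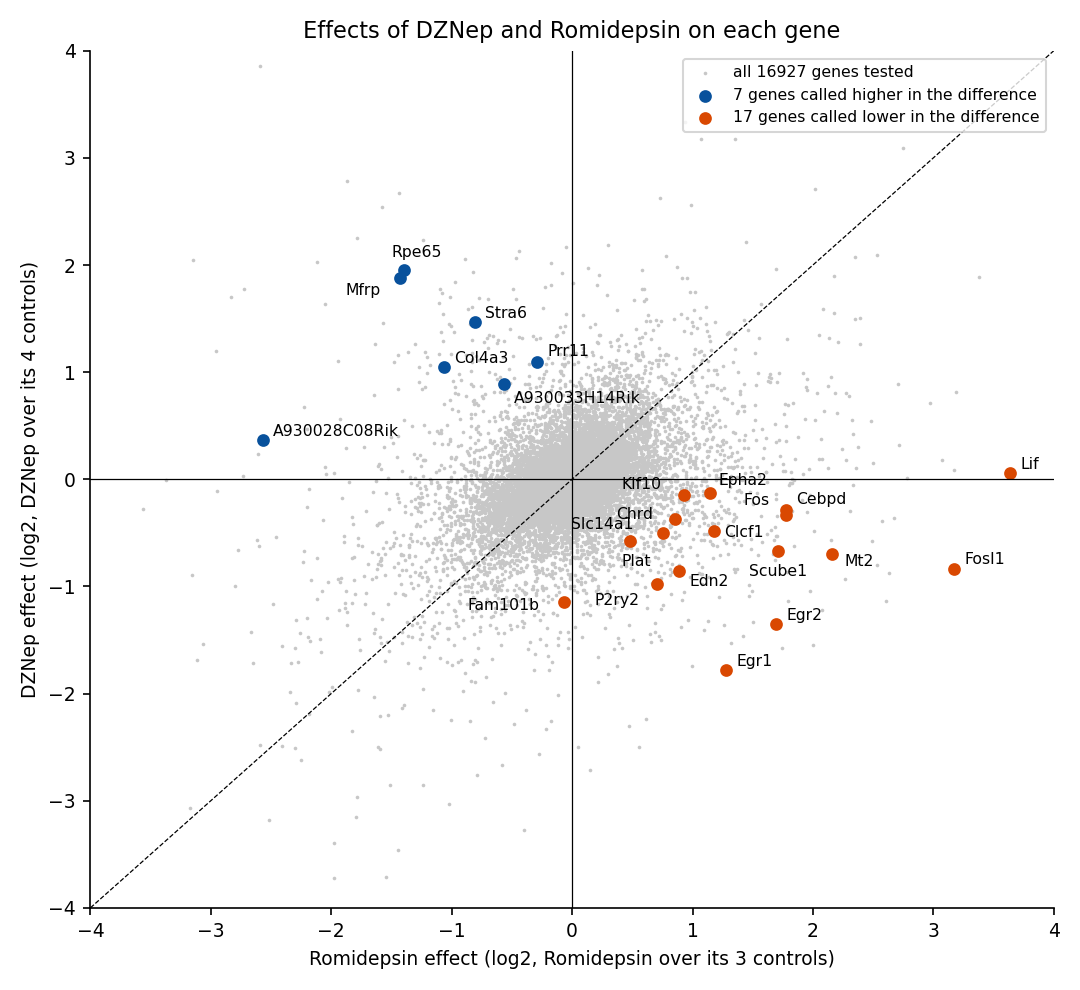
Fitted log2 effect of DZNep (vertical axis) against that of Romidepsin (horizontal axis) for each gene tested (grey), with the 7 genes called higher in the difference in blue, the 17 called lower in orange and equal effects on the dashed line. Apart from Fam101b, which lies near 0 on the Romidepsin axis, the orange genes lie right of the vertical line with DZNep effects at or below about 0, and the blue genes lie in the upper left quadrant; 18 genes fall outside the plotted range of 4 log2 units.

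Effects of opposite direction, each with an adjusted p under 0.05 in its own comparison, were found for 10 of the called genes. DZNep raised and Romidepsin lowered Stra6, Rpe65, Mfrp, Col4a3 and A930033H14Rik. DZNep lowered and Romidepsin raised Egr1, Edn2, P2ry2, Slc14a1 and Plat. Among the other 14 called genes, the Romidepsin effect alone passed in 12 and the DZNep effect alone in 2, Prr11 and Fam101b. Without the fold threshold, an adjusted p under 0.05 was reached upward by 3.74% and downward by 1.31% of all genes with DZNep, and by 6.69% and 5.7% with Romidepsin. By that rule 273 genes passed upward in both effects, 87 downward in both, 7 upward with DZNep and downward with Romidepsin, and 7 the other way.

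Egr1, a zinc finger transcription factor of the immediate-early class, showed the smallest p of the difference. The gene lies at chr18:35020861-35024638 on the plus strand (NCBIM37). In the DZNep experiment the 4 controls held 156, 149, 146 and 201 CPM and the DZNep libraries 48.1 and 46.9 CPM. In the Romidepsin experiment the 3 controls held 113, 126 and 94.7 CPM and the treated libraries 192, 297 and 322 CPM. Thus neither treated group overlapped its controls, and the groups moved apart in opposite directions. The DZNep controls lay above the Romidepsin controls, by 0.55 ± 0.17 (adjusted p = 0.215, edgeR). Over all genes tested, the DZNep libraries lay outside the range of their controls in 45.1% and the Romidepsin libraries in 25.7%. The DZNep effect was -1.78 ± 0.21 (log2, SE), the Romidepsin effect 1.28 ± 0.18, and the difference -3.06 ± 0.28 (95% interval -3.66 to -2.46, adjusted p = 0.00138, edgeR). It was the only called gene that kept an adjusted p under 0.05 in all 12 fits that left out a library.

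Its relative Egr2 followed the same pattern at low counts. Control libraries of the DZNep experiment held 1.53, 1.27, 0.754 and 1.52 CPM against 0.477 and 0.532 CPM with DZNep. Control libraries of the Romidepsin experiment held 1.93, 1.85 and 1.14 CPM against 3.87, 6.77 and 5.21 CPM with Romidepsin. Neither treated group overlapped its controls, but only the Romidepsin effect (1.70 ± 0.29, adjusted p = 0.00547) passed, the DZNep effect of -1.35 ± 0.40 having an adjusted p of 0.075. The difference was -3.05 ± 0.49 (adjusted p = 0.0472, edgeR). Egr3 held 1.22 and 1.14 CPM with DZNep against 2.78 to 4.1 CPM in its controls, and 3.1 to 12.1 CPM with Romidepsin against 1.39 to 3.73 CPM, with a difference of -2.88 that did not pass (adjusted p = 0.103) although its Romidepsin effect did (1.42, adjusted p = 0.0478).

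The AP-1 factors, dimers of Fos and Jun family proteins, were lower in the difference. All 9 tested members of the 11 listed rose with Romidepsin (adjusted p under 0.05) and none passed with DZNep, with median effects of 1.55 and 0.03. For the difference 2 were called, Fos and Fosl1, and all 9 had an unadjusted p under 0.05 in the negative direction, against 6.26% of all genes tested. The median difference was -1.52, beside 0.02 over all genes. The list holds genes that the study itself singled out in these samples (Fosb, Fosl1, Junb), so its direction is no independent evidence.

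Fos held 47.5, 49.3, 49.9 and 60.3 CPM in the DZNep controls and 41.1 and 41.0 CPM with DZNep. In the Romidepsin controls it held 37.4, 52.8 and 38.9 CPM and with Romidepsin 92.5, 147 and 202 CPM. The Romidepsin libraries all lay above their controls, and the DZNep libraries lay just below theirs. The difference was -2.11 ± 0.34 (adjusted p = 0.0452, edgeR), made of -0.33 ± 0.24 with DZNep and 1.77 ± 0.23 with Romidepsin. Fosl1, which encodes Fra-1, had the largest difference of the called genes, -4.01 ± 0.68 (95% interval -5.48 to -2.54, adjusted p = 0.0475). Its level was 0.651, 0.987, 0.613 and 1.13 CPM in the DZNep controls, 0.566 and 0.304 CPM with DZNep, 1.06, 1.37 and 0.774 CPM in the Romidepsin controls, and 4.64, 14.4 and 10.0 CPM with Romidepsin. Romidepsin replicate 1 was the lowest of the treated libraries for both genes. Fosl1 shares 1162 exon bases with Ccdc85b on the opposite strand, whose own difference was -0.16 (adjusted p = 0.79), and whether counting used strand is not given in the sources used here.

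Junb, Fosb and Maff had differences of -2.10, -1.52 and -1.91 that did not pass (adjusted p from 0.0558 to 0.0647). Junb held 131, 272 and 237 CPM with Romidepsin, above 32.3, 62.1 and 37.5 CPM in its controls, and 45.0 and 42.5 CPM with DZNep beside 34.9 to 41.0 CPM in its controls. The DZNep libraries thus lay just above their controls while the Romidepsin libraries lay far above theirs. Summed over the list, AP-1 transcripts held 311 and 305 CPM with DZNep against 287 to 311 CPM in its controls, and 528, 890 and 864 CPM with Romidepsin against 291 to 355 CPM.

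Among 18 other immediate-early genes, 12 rose with Romidepsin and none fell, whereas with DZNep 1 rose, Ier3, and 1 fell, Egr1. Both called members, Egr1 and Egr2, were lower in the difference. An unadjusted p under 0.05 was found for 13 downward, against 6.26% of all genes, and for none upward. In 15 the DZNep libraries lay below the Romidepsin libraries relative to their controls, as in 16.2% of all genes. The median difference was -0.90. Ier2 (-1.35, adjusted p = 0.0641) and Myc (-2.61, adjusted p = 0.0708), a driver of growth and ribosome production, came next in order of p. Myc held 4.64, 10.6 and 10.1 CPM with Romidepsin against 0.798 to 2.27 CPM in its controls, and 1.46 and 1.14 CPM with DZNep against 1.56 to 1.74 CPM. The orphan nuclear receptors Nr4a2 and Nr4a3 had differences of 0.25 and -0.43, and their treated libraries overlapped.

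**Figure D2:**
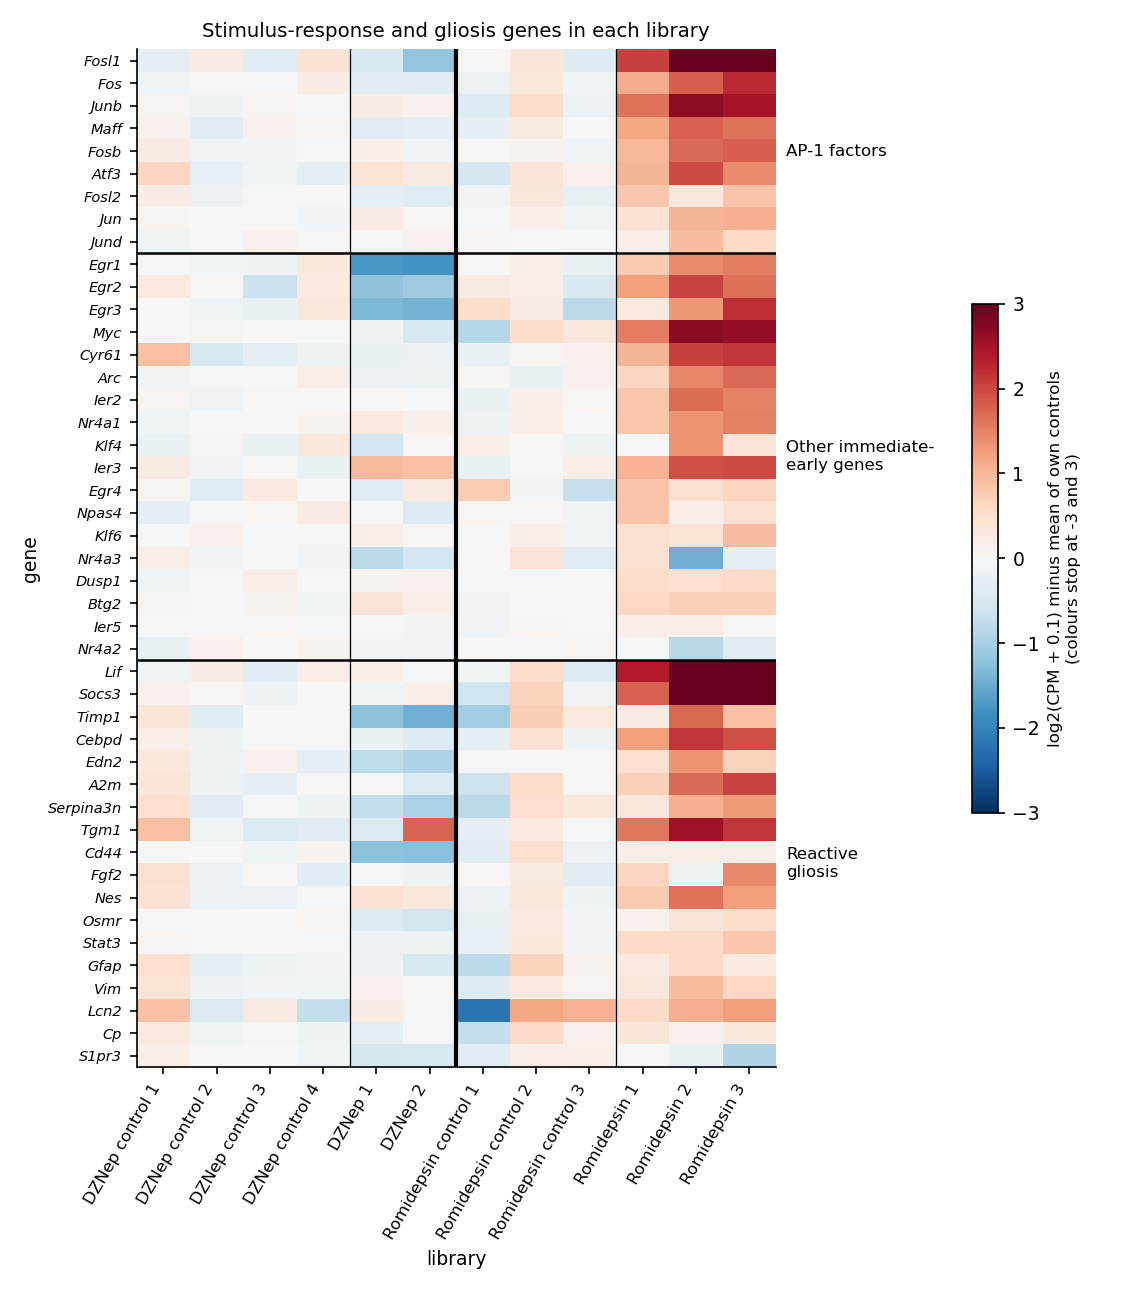
Each row is a tested gene of the AP-1, immediate-early or gliosis list and each column a library, coloured by log2(CPM + 0.1) less the mean of the controls of the same experiment, with colours ending at -3 and 3. The Romidepsin columns are red over most rows, palest in replicate 1, while the DZNep columns stay near white apart from blue in rows such as Egr1, Egr2, Egr3, Cd44 and Timp1.

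No growth arrest gene was called in the difference. Of 10 tested, 6 rose with Romidepsin and 3 with DZNep, and the median difference was -0.20. Gadd45b, a stress-induced protein that binds cell cycle kinases and takes part in DNA demethylation, had the smallest p, with a difference of -1.94 ± 0.37 (adjusted p = 0.0641, edgeR), 0.54 with DZNep and 2.48 with Romidepsin. Gadd45a, Cdkn2c and Cdkn1c rose with both treatments, by 0.67 and 0.84, 0.84 and 0.88, and 0.64 and 0.62, and their differences had intervals within 1 log2 unit on either side of 0.

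Lif and Clcf1, cytokines of the interleukin-6 family, were called lower. Lif, a cytokine that Müller glia release when photoreceptors are damaged, held 19.0, 64.6 and 56.1 CPM with Romidepsin against 3.26, 5.27 and 2.63 CPM in its controls. With DZNep it held 3.82 and 3.27 CPM, within the 3.16, 3.99, 2.69 and 3.91 CPM of its controls. Only Romidepsin separated treated from control libraries, with an effect of 3.64 ± 0.40 against 0.06 ± 0.44 for DZNep and a difference of -3.58 ± 0.60 (95% interval -4.89 to -2.27, adjusted p = 0.0475, edgeR). Clcf1, a relative of Lif that acts through the same signalling chain, had a difference of -1.66 ± 0.28 (adjusted p = 0.0475), from 4.39 to 5.12 CPM in its controls to 7.68, 11.2 and 12.9 CPM with Romidepsin. Clcf1, like Mt2, Scube1 and Chrd below, was named after its value was seen.

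Cebpd and Socs3 are known targets of this signalling. Cebpd, a transcription factor of the acute phase that the annotation used here lists as a pseudogene, held 127, 238 and 205 CPM with Romidepsin against 44.6, 73.1 and 48.3 CPM, and 36.7 and 32.4 CPM with DZNep against 48.4, 38.0, 42.8 and 40.2 CPM. Romidepsin libraries stood well above their controls and DZNep libraries slightly below theirs, with a difference of -2.07 ± 0.33 (adjusted p = 0.0452, edgeR). Socs3, the feedback inhibitor of the same receptors, held 70.1, 199 and 189 CPM with Romidepsin against 13.6 to 33.4 CPM, and 13.9 and 17.0 CPM with DZNep against 13.7 to 16.5 CPM. Its difference of -2.77 did not pass (adjusted p = 0.0662). Stat3, the factor activated by these receptors, had a difference of -0.81 (adjusted p = 0.0956).

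Mt2, a metallothionein that binds zinc and copper, held 224, 562 and 651 CPM with Romidepsin against 69.5, 137 and 115 CPM in its controls, and 42.9 and 36.5 CPM with DZNep against 60.5 to 68.1 CPM. The groups were apart in both experiments, in opposite directions, but only the Romidepsin effect passed (2.16 ± 0.32 against -0.69 ± 0.35), with a difference of -2.85 ± 0.48 (adjusted p = 0.0475, edgeR). The Romidepsin controls lay above the DZNep controls.

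Promoter sequences of the called genes were searched for short motifs in RefSeq windows from 250 bases before to 50 bases after the start of transcription (GRCm38.p6, a later build than the NCBIM37 of the counts). The AP-1 motif TGANTCA, searched on both strands, occurred in 2 of the 9 promoters found for genes called lower (22.22%), in 8.97% of all promoters and in 6.32% of those of genes tested. The 2 promoters, of Lif (chr11:4257318-4257567, 228 bases before the start) and Mt2 (chr8:94172368-94172617, 79 bases before the start), are shown because both genes rose with Romidepsin together with the AP-1 factors. Both lie on the plus strand, the 250 bases before the start are printed and capitals mark the motif.
Lif: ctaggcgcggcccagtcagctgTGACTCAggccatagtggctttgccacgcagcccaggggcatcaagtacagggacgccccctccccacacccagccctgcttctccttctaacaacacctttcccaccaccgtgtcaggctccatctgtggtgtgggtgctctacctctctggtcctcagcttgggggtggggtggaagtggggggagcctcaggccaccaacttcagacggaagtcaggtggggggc
Mt2: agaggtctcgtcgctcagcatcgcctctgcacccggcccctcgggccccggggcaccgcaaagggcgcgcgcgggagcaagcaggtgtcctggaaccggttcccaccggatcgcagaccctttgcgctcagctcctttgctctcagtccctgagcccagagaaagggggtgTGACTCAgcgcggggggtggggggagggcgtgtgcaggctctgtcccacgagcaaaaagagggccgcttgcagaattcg

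The cyclic AMP response element TGACGTCA was found in 1 of the 9 promoters of genes called lower (11.11%), that of Epha2, 33 bases before the start. It was in 2.03% of all promoters and in 3.46% of those of genes tested. A CArG box, the binding motif of serum response factor, searched for after the values were seen, occurred 72 to 133 bases before 4 of the annotated starts of Egr2. The windows that begin at 67537619, 67537620 and 67537680 overlap and hold the same CCATATATGG site. The motif was in 1.81% of all promoters and in 1.62% of those of genes tested. In these shares a gene with several starts counts once. These matches are descriptions, and the factors were not measured on these promoters.

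Gliosis genes as a list were lower in the difference, with 3 of 18 tested members called (Lif, Cebpd and Edn2) and none higher. An unadjusted p under 0.05 was found for 11 of them downward, against 6.26% of all genes, and for none upward. The median difference was -1.14, and all 18 differences were below 0. With Romidepsin 8 rose and none fell, and with DZNep 2 fell, Cd44 and Edn2, and none rose. Edn2, an endothelin that photoreceptors produce under damage, held 26.6 and 23.6 CPM with DZNep against 55.9, 40.4, 49.5 and 37.1 CPM in its controls. With Romidepsin it held 38.9, 69.7 and 44.4 CPM against 26.4, 27.4 and 28.8 CPM. Both treated groups lay outside their controls on opposite sides, and the DZNep controls lay above the Romidepsin controls. The difference was -1.75 ± 0.30 (adjusted p = 0.0475, edgeR).

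Cd44, a hyaluronan receptor of activated Müller glia, was lowered by DZNep alone, to 23.7 and 23.1 CPM from 50.9 to 59.5 CPM, and held 73.7, 73.3 and 73.3 CPM with Romidepsin, inside the 51.8 to 92.5 CPM of its controls. Its difference of -1.37 did not pass (adjusted p = 0.0562). Gfap, the filament protein used as the standard sign of gliosis, had effects of -0.35 and 0.27 and a difference of -0.62 (95% interval -1.56 to 0.31). Vim, another glial filament gene, had a difference of -0.55 (adjusted p = 0.489).

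In bulk tissue a change in the number of cells of a type cannot be told apart from a change in transcript per cell. Transcripts of mature Müller glia fell with both treatments, in 5 of 12 genes with DZNep and in 9 with Romidepsin, with medians of -0.40 and -0.55 and a median difference of 0.13. Their summed level was 7714 and 8559 CPM with DZNep against 10853 to 11317 CPM, and 6975 to 8216 CPM with Romidepsin against 10300.1 to 11853 CPM. The part of this fall in the gliosis result was not tested.

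Among genes of receptors and secreted proteins called lower, Epha2, a receptor tyrosine kinase for ephrins, held 20.7, 21.0 and 22.6 CPM with Romidepsin against 9.38, 9.65 and 9.91 CPM, while its DZNep libraries at 8.52 and 10.8 CPM overlapped controls of 9.49 to 11.5 CPM. Its difference was -1.28 ± 0.18 (adjusted p = 0.0288, edgeR). P2ry2, a receptor for extracellular ATP and UTP, held 2.15 and 1.90 CPM with DZNep against 3.71 to 4.69 CPM, and 5.20, 7.53 and 7.07 CPM with Romidepsin against 3.90 to 4.26 CPM. All treated libraries of P2ry2 lay outside their controls on opposite sides, giving a difference of -1.68 ± 0.26 (adjusted p = 0.0452).

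Plat, the tissue plasminogen activator, was lowered by DZNep (-0.58 ± 0.12) and raised by Romidepsin (0.48 ± 0.11). Slc14a1, a urea transporter, behaved in the same way (-0.50 ± 0.13 and 0.75 ± 0.12), with 20.1 and 24.4 CPM with DZNep against 29.5 to 33.5 CPM and 37.3, 49.1 and 51.7 CPM with Romidepsin against 26.8 to 27.7 CPM. Chrd, a secreted antagonist of bone morphogenetic proteins, Scube1, a secreted and membrane-bound glycoprotein, and Klf10, a transcription factor induced by transforming growth factor beta, rose with Romidepsin by 0.85, 1.71 and 0.93 and did not pass with DZNep. Their differences were -1.23, -2.38 and -1.07. Chrd shares 154 exon bases with Thpo on the opposite strand, whose difference of -1.14 did not pass.

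Fam101b, a regulator of actin filaments, differed from the rest of the genes called lower, since DZNep alone moved it. The DZNep libraries held 5.99 and 6.16 CPM against 13.2, 13.5, 13.0 and 13.9 CPM in their controls, and the Romidepsin libraries 11.5, 12.6 and 13.2 CPM against 12.8, 14.6 and 11.8 CPM. DZNep separated treated from control libraries and Romidepsin did not. The difference was -1.07 ± 0.17 (adjusted p = 0.0452, edgeR).

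**Figure D3:**
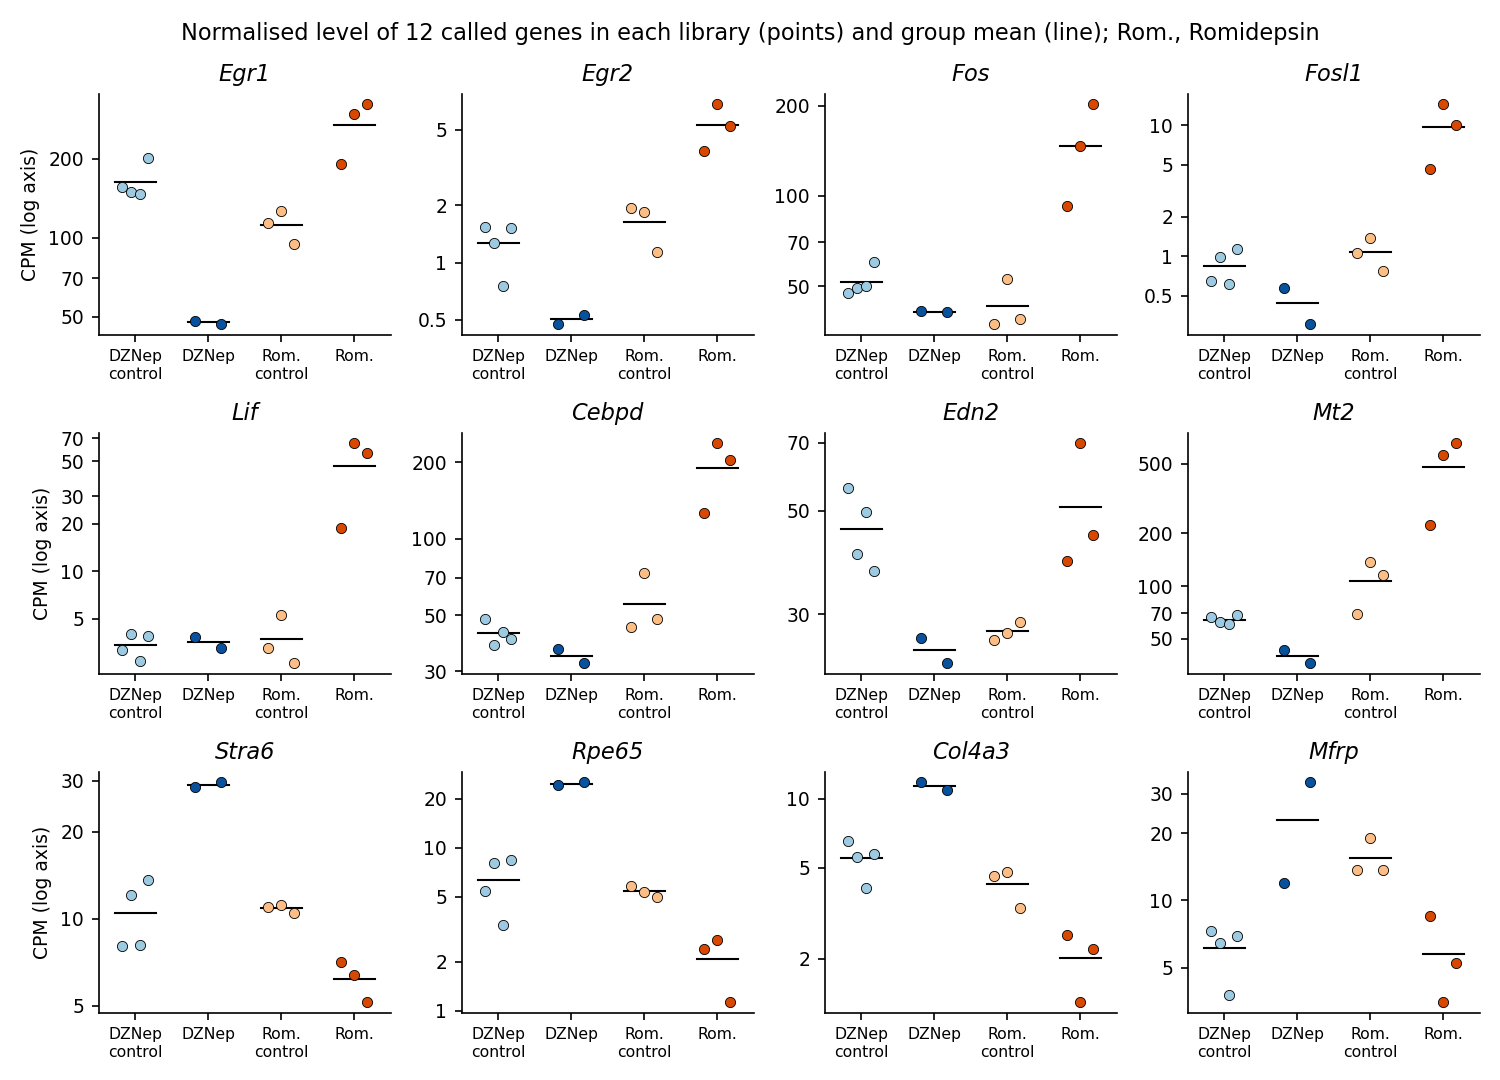
CPM on a log axis of 12 called genes in each library (points) of the 4 groups, with group means as lines. In the upper 8 panels the Romidepsin points stand above their controls and the DZNep points lie at or below theirs, and in the lower 4 panels (Stra6, Rpe65, Col4a3, Mfrp) the DZNep points stand above and the Romidepsin points below their controls.

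Genes of the RPE were higher in the difference. Of 17 tested, 2 were called, Stra6 and Rpe65, none was lower, 14 had an unadjusted p under 0.05 upward against 5.79% of all genes, and in 13 both DZNep libraries lay above all Romidepsin libraries relative to their controls, as in 18% of all genes. With DZNep 8 rose and none fell, with Romidepsin 5 fell and none rose, and the median effects were 1.19 and -0.81. Retinas were dissected from the eye, and the amount of RPE carried along can vary between libraries. The summed RPE transcripts held 443 and 640 CPM with DZNep against 265 to 407 CPM in its controls, and 301, 227 and 305 CPM with Romidepsin against 325 to 387 CPM. The part of attached tissue in these values was not tested.

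Rpe65, the isomerase that regenerates the visual chromophore, lies at chr3:159262197-159287763 on the plus strand (NCBIM37). It held 24.2 and 25.1 CPM with DZNep against 5.39, 8.08, 3.35 and 8.44 CPM in its controls. With Romidepsin it held 2.38, 2.71 and 1.13 CPM against 5.86, 5.38 and 5.01 CPM. All treated libraries lay outside their controls, above with DZNep and below with Romidepsin. The difference was 3.36 ± 0.47 (95% interval 2.35 to 4.37, adjusted p = 0.0288, edgeR), from 1.96 ± 0.30 and -1.40 ± 0.35. Stra6, the receptor that takes up retinol from its plasma carrier, held 28.5 and 29.6 CPM with DZNep against 8.04, 12.1, 8.11 and 13.6 CPM, and 7.08, 6.39 and 5.17 CPM with Romidepsin against 11.0, 11.1 and 10.5 CPM. Again no treated library overlapped its controls, and the difference was 2.28 ± 0.28 (adjusted p = 0.0219).

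Mfrp, a membrane protein of the RPE that is mutated in forms of retinal degeneration and small eye, held 12.0 and 33.7 CPM with DZNep against 7.3, 6.44, 3.77 and 6.91 CPM. With Romidepsin it held 8.51, 3.52 and 5.26 CPM against 13.7, 19.1 and 13.6 CPM. The treated libraries did not overlap their controls, but the DZNep libraries were far apart from each other and the Romidepsin controls exceeded the DZNep controls. The difference was 3.31 ± 0.55 (adjusted p = 0.0475, edgeR), and without DZNep replicate 2 it was 2.41 (adjusted p = 0.227). Mfrp shares 1398 exon bases with C1qtnf5 on the same strand, which was not among the genes tested, so reads from these exons are ambiguous between the genes.

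Genes of the visual cycle and of pigment production differed in how they spread over the DZNep libraries. Rgr, an opsin of the RPE and Müller glia, held 68.0 and 81.9 CPM with DZNep against 10.2 to 27.0 CPM, and Lrat, which esterifies retinol, 10.8 and 12.5 CPM against 1.60 to 5.62 CPM, so both DZNep libraries were high. Ttr, also used as a marker of the RPE, held 72.4 and 86.6 CPM with DZNep, inside the 27.5 to 90.9 CPM of its controls. Tyrp1, Dct and Mlana of melanosomes held 31.2, 103 and 6.69 CPM in DZNep replicate 2, but 5.22, 24.1 and 0.596 CPM in replicate 1, where their controls ranged over 3.54 to 12.7, 14.9 to 38.9 and 0.33 to 2.14 CPM. Replicate 2 is also the library in which Cryaa and Crybb2 stood apart. Without it the median difference of the RPE list was 1.11 in place of 2.19, while that of Rpe65 stayed at 3.34 (adjusted p = 0.133) and that of Stra6 at 2.26 (adjusted p = 0.104). Rdh5, which oxidises 11-cis-retinol, and the transporter Slc6a20a rose with DZNep and fell with Romidepsin, with differences of 2.06 (adjusted p = 0.0502) and 2.28 (adjusted p = 0.0641) that did not pass.

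The core TAATCC, bound by the photoreceptor and RPE factors CRX and OTX2 and searched on both strands, occurred in 2 of the 5 promoters found for genes called higher. It was found in 6 of 14 promoters of the RPE list (42.86%), in 3 of 6 of the rod phototransduction list (50%), in 8.14% of all promoters and in 7.06% of those of genes tested. The promoters of Rpe65 (chr3:159598931-159599180, match 42 bases before the start) and Mfrp (chr9:44101520-44101769, match 134 bases before the start) are shown because these genes had the largest differences among the genes called higher. Capitals mark the core, which reads GGATTA since it lies on the opposite strand of the printed plus strand.
Rpe65: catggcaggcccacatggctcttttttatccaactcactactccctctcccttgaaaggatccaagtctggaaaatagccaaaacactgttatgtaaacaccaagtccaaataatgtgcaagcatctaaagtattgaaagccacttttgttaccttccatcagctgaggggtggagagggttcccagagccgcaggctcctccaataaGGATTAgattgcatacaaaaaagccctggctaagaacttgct
Mfrp: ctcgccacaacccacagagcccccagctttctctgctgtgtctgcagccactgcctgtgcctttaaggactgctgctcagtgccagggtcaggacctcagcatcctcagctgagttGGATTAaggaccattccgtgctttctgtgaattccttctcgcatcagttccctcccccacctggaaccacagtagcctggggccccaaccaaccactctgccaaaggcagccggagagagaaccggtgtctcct

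Of the other genes called higher, Col4a3, a chain of basement membrane collagen IV, held 11.8 and 11.0 CPM with DZNep against 6.55, 5.59, 4.10 and 5.74 CPM and 2.54, 1.30 and 2.22 CPM with Romidepsin against 4.59, 4.80 and 3.36 CPM. Its effects were opposite and both passed, with a difference of 2.11 ± 0.34 (adjusted p = 0.0452, edgeR). Prr11, a proline-rich protein linked to cell division, rose with DZNep alone, to 10.3 and 10.0 CPM from 4.24 to 5.34 CPM, and its difference was 1.39 ± 0.22. A930033H14Rik had effects of 0.89 and -0.57 and shares 15 exon bases with Rhobtb1 on the opposite strand. Its DZNep controls (23.9 to 27.4 CPM) lay above its Romidepsin controls (14.4 to 21.8 CPM). The long intergenic RNA A930028C08Rik fell with Romidepsin alone, to a mean of 0.478 ± 0.313 CPM (SD, n = 3) from 3.59, 1.58 and 3.25 CPM, while DZNep libraries held 6.92 and 6.54 CPM against 4.30 to 6.04 CPM. It shares 452 exon bases with Ube4b on the opposite strand, whose difference was -0.08. For A930028C08Rik too the DZNep controls lay above the Romidepsin controls.

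Rod genes had larger fitted effects with DZNep than with Romidepsin, but none of them was called in the difference. All 10 genes of rod phototransduction had positive differences (median 0.75, from 0.57 to 1.06), and 9 had an unadjusted p under 0.05, against 5.79% of all genes upward. In all 10 the DZNep libraries lay above the Romidepsin libraries relative to their controls, as in 18% of all genes. With DZNep 9 of them rose (median 1.09) and with Romidepsin 1, Pde6b (median 0.37). Between the control groups all 10 were higher in the DZNep controls (median 0.28, 2 with an unadjusted p under 0.05, edgeR). Slc24a1, the rod sodium, calcium and potassium exchanger and the member of smallest p, held 1577 and 1448 CPM with DZNep against 751, 569.6, 674 and 451 CPM. With Romidepsin it held 779.6, 515 and 614 CPM against 488, 418 and 559.6 CPM. The DZNep libraries lay above their controls and the Romidepsin libraries overlapped theirs, with a difference of 0.93 ± 0.27 (95% interval 0.34 to 1.51, adjusted p = 0.174, edgeR).

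Next in order of p among rod phototransduction genes were Gnb1, Pde6g and Cnga1 (0.78, 1.05 and 0.72). The outer segment genes had a median difference of 0.51, with 12 of 13 raised by DZNep and 7 by Romidepsin. For recovery and calcium feedback the median was 0.46, with 6 of 11 and 4 raised, and for photoreceptor transcription factors 0.30, with 9 of 14 and 7 raised. Nrl, the factor that sets rod identity, had a difference of 0.87 (95% interval 0.26 to 1.48, adjusted p = 0.223). Pdc, Prph2, Rom1, Nr2e3 and Pde6b had differences of 0.65, 0.61, 0.67, 0.51 and 0.66. By contrast Aipl1, Guca1a, Ptp4a3 and Casz1 had differences of -0.02, 0.17, -0.18 and 0.01, with intervals within 1 log2 unit on either side of 0, and rose with each treatment.

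No cone gene was called in the difference. Of 13 tested, 9 fell with Romidepsin and 3 with DZNep (medians -0.72 and -0.15), against 5.7% and 1.31% of all genes. The median difference was 0.68. Between the control groups all 13 were higher in the DZNep controls (median 0.33, 6 with an unadjusted p under 0.05, edgeR). Gnat2, the cone transducin subunit, held 204 and 217 CPM with DZNep, inside its controls of 191 to 222 CPM, and 116, 79.9 and 62.3 CPM with Romidepsin, below its controls of 162, 140.1 and 160.0 CPM. Opn1mw, the medium wavelength cone opsin, held 211 and 200.1 CPM with DZNep beside 205 to 245 CPM and 152, 73.4 and 84.7 CPM with Romidepsin against 235, 175 and 226 CPM. In both genes Romidepsin replicate 1 was the treated library nearest to the controls. Their differences of 0.85 and 0.89 did not pass (adjusted p = 0.169 and 0.254). Cngb3 and Cnga3, subunits of the cone channel, had differences of 1.17 and 0.74, whereas Gnb3, shared by cones and ON bipolar cells, was lowered by DZNep (-0.54) and had a difference of -0.84 (adjusted p = 0.0975). Pde6c fell with both treatments, and its difference was 0.11 (95% interval -0.31 to 0.54).

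**Figure D4:**
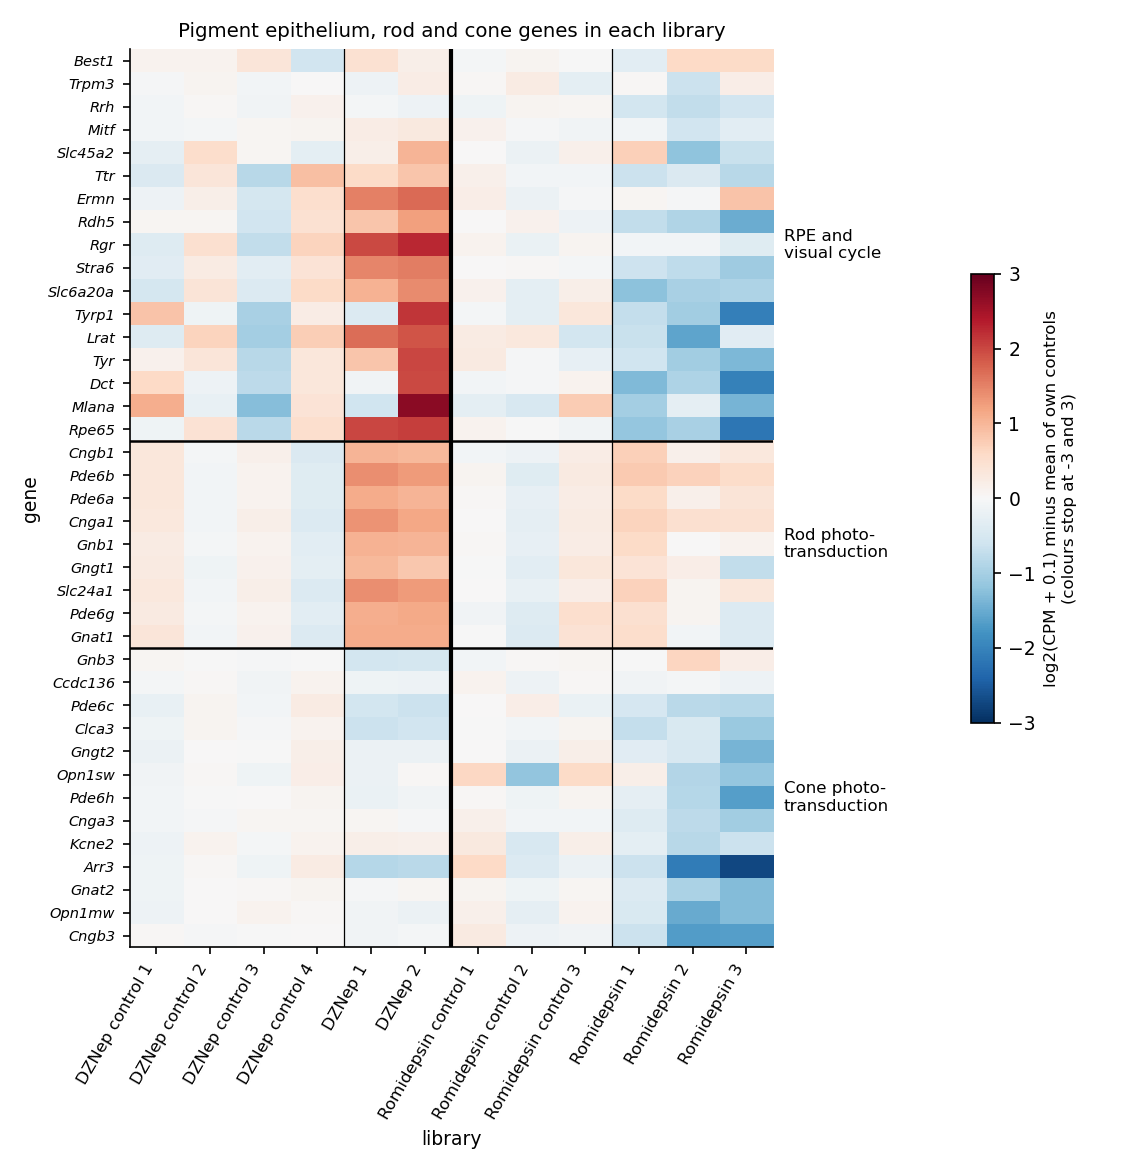
Genes of the RPE, rod and cone lists by library, coloured by log2(CPM + 0.1) less the mean of the controls of the same experiment, with colours ending at -3 and 3. Rod rows are red in both DZNep columns and paler in the Romidepsin columns, cone rows are blue mainly in Romidepsin replicates 2 and 3, and the melanosome rows Tyrp1, Dct and Mlana are red in DZNep replicate 2 and pale blue to white in replicate 1.

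Genes of microglia, the interferon response and antigen presentation had negative median effects with both treatments, and none was called in the difference. The 13 chemokine and cytokine genes, of which none was called either, had median effects of -0.24 with DZNep and 0.16 with Romidepsin. The medians of the 21 microglial genes were -0.83 with DZNep and -0.69 with Romidepsin, with 2 and 6 of them past an adjusted p of 0.05, and the median difference was -0.16. For the 22 interferon response genes the medians were -0.84 and -0.82, none passed, and the median difference was -0.05. None of the 16 genes of antigen presentation was called, and their median difference was -0.55. Cd74, the invariant chain of class II molecules, held 0.835 and 1.37 CPM with DZNep against 25.7, 7.85, 14.2 and 6.21 CPM, and 14.2, 11.5 and 4.99 CPM with Romidepsin against 20.9, 27.4 and 40.5 CPM. Both treated groups lay below their controls, and the difference of -2.17 (95% interval -4.04 to -0.30) did not pass (adjusted p = 0.329, edgeR). Of the 21 microglial genes 9 had a positive difference, the largest being that of P2ry12, a receptor of resting microglia, which fell with Romidepsin (-1.22) and had a DZNep effect of -0.06, with a difference of 1.16 (adjusted p = 0.14). Cx3cr1, the fractalkine receptor of microglia, and Aif1, which encodes the microglial marker Iba1, had differences of 0.22 and 0.03. Ptprc, the pan-leukocyte antigen CD45, C1qb, a chain of complement C1q, and Cst7, an inhibitor of lysosomal proteases, had differences of -0.43, -0.63 and -0.44, and H2-Aa, a class II chain, -1.74, none of which passed. Since the 2 control groups themselves were apart by -0.96 and -1.03 in the medians of microglial and antigen presentation genes, these differences cannot be told apart from the state of the controls.

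Machinery aimed at by the compounds showed no called difference. Of the 10 genes of Polycomb repressive complex 2, Ezh1 rose with DZNep and Ezh2 with Romidepsin, and the median difference was -0.01, while for 11 histone deacetylases none passed with either treatment and the median difference was -0.07. The 10 tested genes of the methionine cycle, through which DZNep acts, had a median difference of 0.02. The 39 Hox genes listed, which Polycomb complexes keep silent outside the body axis, were all below the count filter, so none was tested. Integrated stress response genes (14 tested), glycolysis genes (16) and cell cycle genes (12) had median differences of 0.01, 0.06 and -0.07. Hk2, the hexokinase of active photoreceptors, rose by 1.16 with DZNep and by 1.10 with Romidepsin, with a difference of 0.06 (95% interval -0.34 to 0.47). Selenbp1, a selenium-binding protein, rose by 1.64 and 1.57, with a difference of 0.07 (95% interval -0.95 to 1.10). Rabgef1, an exchange factor for the endosomal GTPase Rab5, rose with DZNep (0.73) and had a Romidepsin effect of -0.21, and its difference of 0.94 did not pass (adjusted p = 0.153).

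In the other lists no gene was called. All 17 genes of cholesterol synthesis and uptake had positive differences (median 0.29), 4 with an unadjusted p under 0.05 (5.79% of all genes upward) and none called. Among 24 extracellular matrix genes none was called, and the median difference was 0.17, with 14 above 0 and 10 below. Their median Romidepsin effect was -0.21, with 17 below 0 and 7 above, and 5 passed upward and 2 downward. Col6a2 and Col1a1 were raised by Romidepsin (0.90 and 1.80), and their differences of -1.04 and -1.85 did not pass. Of 12 bipolar cell genes, 8 fell with Romidepsin and 1 with DZNep, with a median difference of 0.15. The 5 haemoglobin and red cell genes had a median difference of 1.55 and the 8 lens genes 1.34, which was -0.34 without DZNep replicate 2. The medians of amacrine, ganglion, horizontal and vascular genes differed between treatments by less than 0.2 log2 units, and the 73 cytosolic ribosomal protein genes by -0.16. Without any called gene, median differences were 0.30 for 16 photoreceptor ribbon synapse genes, -0.23 for 11 p53 targets, -0.06 for 13 complement genes, -0.38 for 13 chemokine and cytokine genes, -0.02 for 12 polyadenylated histone genes and 0.20 for 19 mitochondrially encoded genes.

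**Figure D5:**
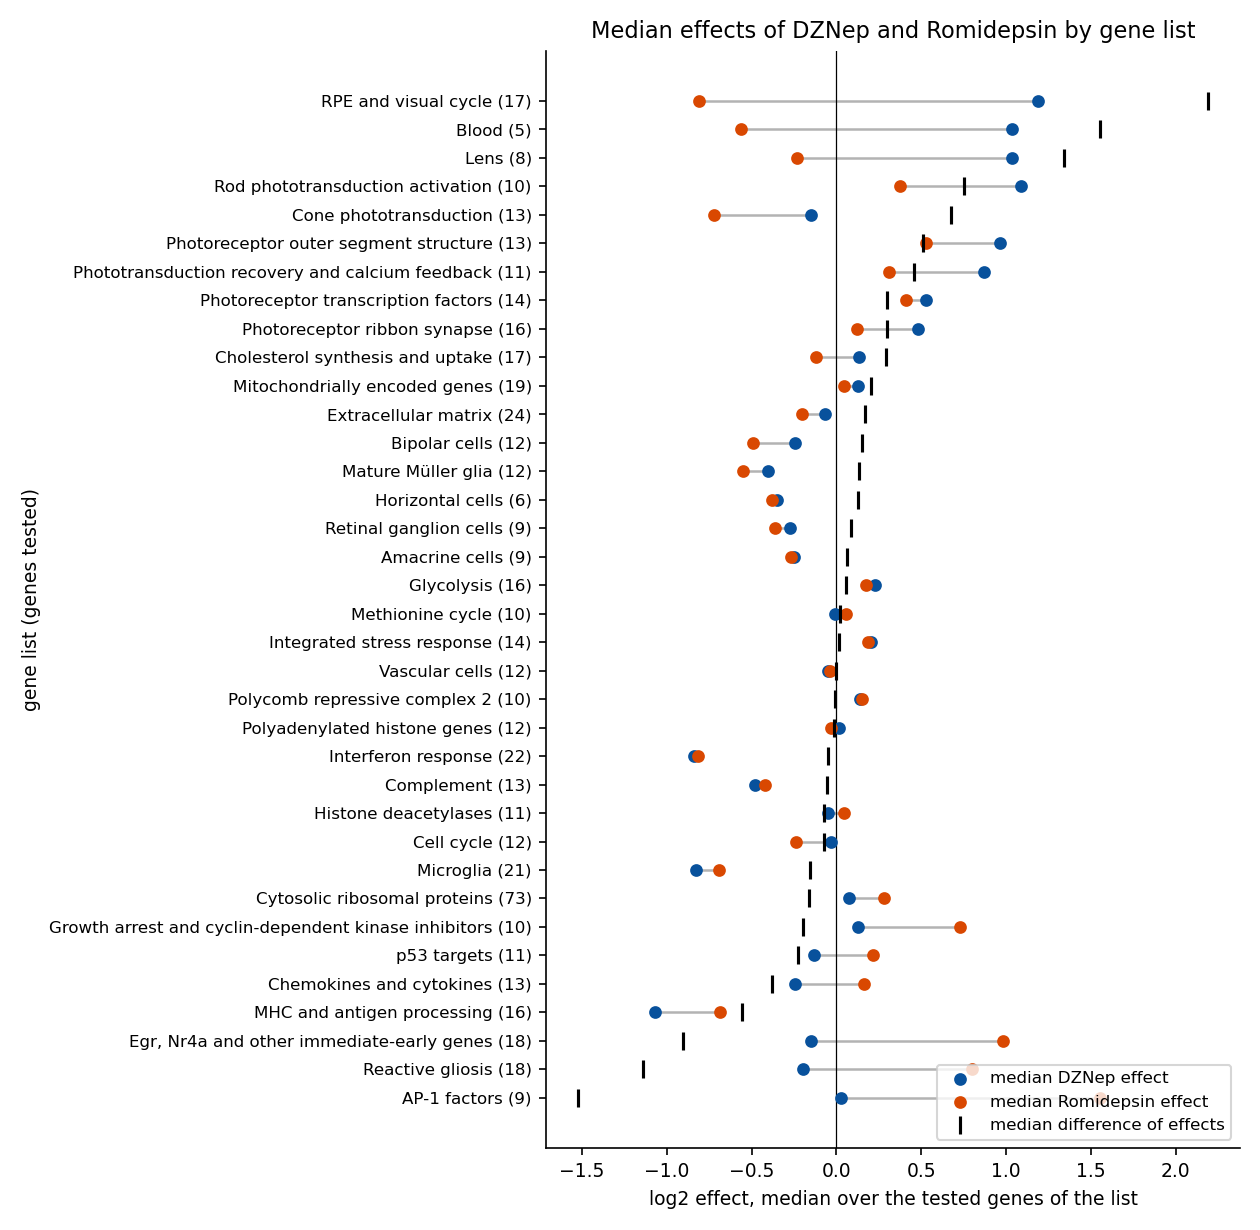
Median log2 effect of DZNep (blue), of Romidepsin (orange) and of the difference of effects (black bar) over the tested genes of each list, ordered by the difference, with the number of genes tested in parentheses. The AP-1, gliosis and immediate-early lists lie at the bottom with medians of -1.52, -1.14 and -0.90, the RPE list lies at the top with 2.19, and the microglial and interferon lists show nearly equal negative medians for both treatments.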

How the data were processed

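Polyadenylated RNA of whole retina was sequenced by the authors from a stranded library kit, and 12 libraries in 4 groups were used here (Romidepsin 3, its saline controls 3, DZNep 2, its saline controls 4), grouped by the labels. The deposited values are whole-number read counts per Ensembl gene, made by the authors with HISAT2 2.2.1 and HTSeq 0.11.2 on NCBIM37 with 1 column per library and no normalization. The strand setting is not given in the sources used here. Of 37991 genes, 16927 passed edgeR's filterByExpr. A fit of 4 group means over the 12 libraries (edgeR 4.0.16 quasi-likelihood test in R 4.3.3, TMM scaling) gave each treatment's effect and their difference, with p-values adjusted by Benjamini-Hochberg over all genes tested. Genes were called at an adjusted p under 0.05 and an absolute log2 value above 1, and the steps were tested on simulated data. The labels call the libraries of a group biological replicates, while no source says how many animals each library holds. The p-values thus measure the spread between libraries, which may be partly technical.

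Totals of 14115428 to 36354094 counts per library set the precision, and a count of 0 allows up to 3 counts, that is 0.0894 to 0.228 CPM. All replicate pairs differed by more than sampling noise. Genes named were drawn from the 10 of smallest p among those called in each direction whose treated libraries were apart, the opposite genes, genes the study singled out, and the 4 of smallest p in each list, with partners that share exons. Outside that rule, Cdkn1c, Cdkn2c, Chrd, Clcf1, Dct, Egr3, Ier3, Lrat, Mip, Mlana, Mt2, Nr4a2, Nr4a3, Rgr, Scube1, Socs3, Stat3, Timp1, Ttr, Tyrp1 and Vim were named after their values were seen. The members and the gene lists (628 entries, 619 in the table, 541 tested) were chosen with earlier results of these data known. Of 24 called genes 14 had a promoter entry. The genotype labels of the DZNep experiment count upward from rd10 and were read as the same strain, and the DZNep schedule follows the study's text where the labels give daily injections. Alternatives were DESeq2 1.42.0, the likelihood ratio test, other filters and scaling, a replicate block, other sets of libraries and each library left out. Replicate numbers did not pair treated and control libraries (r of deviations from -0.24 to 0.17). Values of 1 rod gene are not reported here, though the summaries of its lists include it.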

Additional observations from a re-analysis of the deposited data

Results flagged for a closer look

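Of 105 values examined in the 4 DZNep controls, 6 had a single library far from the rest, about as many as chance gives at the 95% level of the Dixon test used. A930033H14Rik was at 23.89 CPM in control replicate 1, with the others between 26.96 and 27.38 CPM. Fosb was at 8.737 CPM in control replicate 1, with the others between 6.721 and 6.914 CPM. Cdkn1c was at 16.91 CPM in control replicate 4, with the others between 17.81 and 17.99 CPM, Maff at 1.175 CPM in control replicate 2, with the others between 1.601 and 1.673 CPM, and Vim at 348.1 CPM in control replicate 1, with the others between 232.6 and 243.7 CPM. The summed haemoglobin and red cell transcripts were at 109.4 CPM in control replicate 3, with the others between 36.66 and 45.19 CPM. No explanation was tested.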

How the results depend on the processing

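The calls were few and their number moved with the settings, while no called difference of a single gene changed sign (of 2037 values of 93 genes under 22 alternatives, 1619 stayed on their side of the threshold, 260 lost the call and 158 gained it). The difference of effects had 88 genes higher and 150 lower by the likelihood ratio test, 76 and 137 by DESeq2, 40 and 87 with no filter on low counts, 21 and 20 with all 22 retina libraries fitted together, 8 and 11 with sex as a covariate (chosen after seeing the data), 249 and 434 without own controls, and 219 and 334 with the 7 controls pooled. All 24 genes were shared with the first 3 of these, 14 with the 22 libraries, 16 with sex, 22 without own controls and 20 with pooled controls. Genes lowered by DZNep numbered 118, 88 and 29 by the likelihood ratio test, DESeq2 and with sex. Without the fold threshold DZNep had 633 and 221 genes and Romidepsin 1133 and 965. With at least 10 counts in every library Romidepsin lowered 103. The control groups differed in 15 higher and 144 lower genes by the likelihood ratio test, 8 and 101 by DESeq2, 4 and 39 with no filter, 2 higher with 22 libraries and with no fold threshold, and 0 higher with the count minimum. Opposite genes (up and down with DZNep) were 11 and 10 by the likelihood ratio test and by DESeq2, 9 and 6 with no filter, 9 and 3 with 22 libraries, and 3 down with sex.

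With the replicate number as a replicate block, edgeR called 3 genes higher and 12 lower in the difference, 5 of them among the 24, 0 and 0 for DZNep (where 2 pairs leave little to estimate), 130 and 41 for Romidepsin, and 0 and 0 opposite genes. The numbers did not pair the libraries. The block moved the median difference of the RPE list to 1.76 and of histone deacetylases to -0.006, and the count minimum moved p53 targets to -0.11 and lens genes to 0.20.

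Leaving out 1 library gave 0 to 100 genes higher and 1 to 174 lower in the difference, 75 to 152 and 7 to 76 with DZNep, 157 to 386 and 86 to 312 with Romidepsin, 1 to 5 and 1 to 126 between controls, and 0 to 16 and 1 to 9 opposite genes. Without a DZNep library the other is assumed to vary like the other groups. Median differences ranged over 1.11 to 2.43 for RPE, 0.39 to 0.95 for cones, 0.17 to 0.37 for ribbon synapses, -1.12 to -0.82 for immediate-early genes, -0.38 to -0.10 for growth arrest, -0.34 to -0.10 for p53 targets, 0.030 to 0.24 for Müller glia, -0.34 to 0.054 for complement, -0.12 to 0.0275 for histone deacetylases, -0.093 to 0.13 for the integrated stress response, -0.057 to 0.17 for glycolysis, -0.34 to 2.01 for lens and 0.96 to 2.06 for blood. The causes were not tested.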
